A study of Mus musculus with 6 samples.

Results

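The clock output factors and targets described here are 10 genes: Dbp, Tef, Hlf, Nfil3, Bhlhe40, Bhlhe41, Usp2, Wee1, Noct and Tsc22d3. They are listed genes, found by their single gene symbol in the platform's probe annotation, where Noct carries its older name Ccrn4l. All 10 were measured, among 15045 genes with a value, and all of their 103 probe sets were bright enough to be kept (of 191663 kept on the whole array). A probe set, the unit of an exon array, is a small group of probes aimed at 1 stretch of a transcript. The livers came from 3 Dhx32 homozygous mutant (Dhx32-/-) mice and 3 control mice labelled wild type. All were males of 6 to 8 weeks, and each liver was snap frozen and hybridised to 1 array. Dhx32 encodes a DEAH-box RNA helicase. The study asked which transcripts and exons change in liver when Dhx32 is mutated. The kind of mutation, the genetic background and the hour of collection are not given in the sources used here.

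The circadian clock of the liver is a loop in which CLOCK and BMAL1 bind E-box sites in DNA and switch on their own repressors, the PER, CRY and NR1D proteins. Output factors carry this rhythm to other genes. DBP, TEF and HLF, the PAR bZIP proteins, activate genes through D-box sites, and NFIL3 represses at the same sites. BHLHE40 and BHLHE41 repress at E-boxes. Usp2, Wee1, Noct and Tsc22d3 are transcripts whose level follows the time of day in mouse liver, and Tsc22d3 is also induced by glucocorticoids.

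Log2 signals had array medians of 6.73 to 6.95, and a difference of 1 on this scale is a 2-fold difference of signal. Mutant replicate 1 stood apart from the other 5 arrays, with correlations of 0.935 to 0.940 against 0.960 to 0.973 among those 5. Differences of the 10 genes are therefore also given without it. Dhx32 read 6.35, 6.60 and 7.04 in the 3 mutants against 8.28, 8.85 and 8.62 in the 3 controls, which is in the direction of the labels. Hepatocyte markers were bright on every array, with a mean over 5 genes of 13.5 to 13.7 in mutants and 13.6 in controls. The mean of 5 neutrophil markers was 5.53 in mutant replicate 1 and 4.51 to 4.89 in the other livers. That of 6 adipocyte markers was 5.74 to 6.06 in mutants against 5.18 to 5.54 in controls, with all 6 higher in mutants. Hepatic stellate cell markers (6 of 6 measured, 2 higher in mutants) averaged 7.23, 7.72 and 8.04 in the mutants against 7.91, 8.22 and 8.08 in the controls. Sinusoidal endothelium markers (6 of 6 measured, 2 higher in mutants) averaged 8.94, 8.31 and 9.27 in the mutants against 8.63, 9.12 and 9.24 in the controls. Both were lowest in mutant replicates 1 and 2 and control replicate 1. The part of these markers in the values of the clock output genes was not tested. In bulk tissue, fewer cells of a type and less RNA per cell cannot be told apart.

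Promoter windows in the RefSeq tables (build GRCm38.p6, 250 bases before to 50 after a gene's start) were found for 8 of the 10 genes, 11 windows in all. Bhlhe40 and Wee1 had no window and were not searched. The windows were searched on both strands for sites of the clock and its output factors. These were the E-box (CACGTG), the D-box (TTATGTAA or TTACGTAA) and the core of the ROR and NR1D receptor element (TAGGTCA). The cAMP response element (TGACGTCA), which is not a site of these factors, was searched as well. Of 32851 windows in the table, 7.15% held the E-box, 1.06% a D-box, 2.61% the ROR core and 1.79% the cAMP element. Matches lay in Tef (both windows), Bhlhe41, Nfil3 and Hlf, and stand in capitals with 27 flanking bases on each side, 5′ to 3′ on the gene's strand. A match describes these letters only.
Tef, upstream window, chr15:81802519-81802578, plus strand: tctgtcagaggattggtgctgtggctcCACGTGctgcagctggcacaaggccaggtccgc
Tef, downstream window, chr15:81811249-81811308, plus strand: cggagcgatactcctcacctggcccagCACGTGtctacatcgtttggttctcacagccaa
Bhlhe41, chr6:145865541-145865600, minus strand: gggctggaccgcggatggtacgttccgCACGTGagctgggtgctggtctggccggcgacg
Nfil3, chr13:52981018-52981078, minus strand, the ROR core read on the opposite strand: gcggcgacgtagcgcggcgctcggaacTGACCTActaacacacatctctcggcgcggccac
Hlf, chr11:90390892-90390953, minus strand: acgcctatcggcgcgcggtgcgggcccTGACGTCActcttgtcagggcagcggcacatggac

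No clock output gene passed the test between mutants and controls. Of the 10 genes, 8 had a lower mean in mutants and 2, Nfil3 and Noct, a higher one. The median difference was -0.44, beside -0.01 over all genes, of which 52.5% had a lower mean in mutants. In limma 0 of 10 passed after adjustment over all genes (of all genes, 0.00665%). At an unadjusted p under 0.05 there was 1 gene, Bhlhe41, against 4.21% of all genes. The groups were separated without overlap in 1 of the 10 genes, Noct, against 9.47% of all genes (5.15% with mutants higher, 4.32% with mutants lower). With mutant replicate 1 left out, the number of genes lower in mutants was 7 and the median difference was -0.27.

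**Figure D1:**
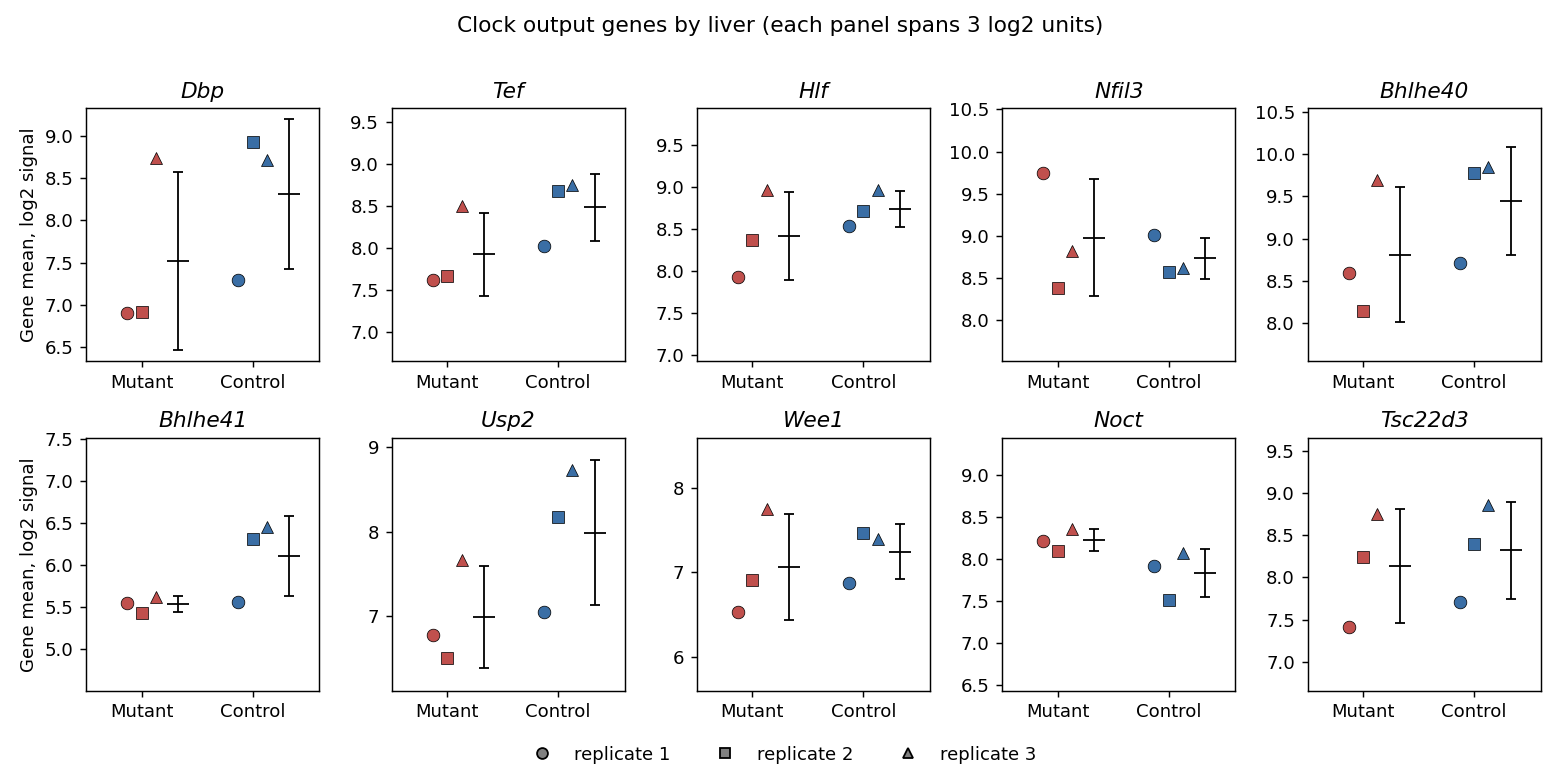
Gene means in log2 signal (vertical axis, 3 log2 units in every panel) for the 10 clock output genes in 3 mutant and 3 control livers. Each point is 1 liver, and the bar beside it is the group mean with its SD (n = 3). In Dbp, Tef, Bhlhe40 and Wee1 mutant replicate 3 lies with control replicates 2 and 3, and control replicate 1 lies with mutant replicates 1 and 2. In Bhlhe41 mutant replicate 3 lies with the lower livers, and Nfil3 and Noct show other orders.

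Dbp, the PAR bZIP factor with the widest daily swing in liver, read 6.90, 6.91 and 8.74 in the mutants and 7.29, 8.93 and 8.71 in the controls. Mutant replicate 3 was as high as the upper controls, and control replicate 1 was nearer to the lower mutants than to the other controls, so the groups overlapped. The mean was 7.52 ± 1.06 in mutants and 8.31 ± 0.89 in controls (SD, n = 3 each), a difference of -0.79 (SE 0.57) with an adjusted p = 0.943 in limma. An exact two-sided permutation test gave p = 0.3, where 0.1 is the smallest that 3 against 3 allows. It was -0.49 (SE 0.62) without mutant replicate 1.

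Tef, which binds the same D-box sites as Dbp, had the same lowest 3 livers in the same order, over a narrower range. It read 7.61, 7.67 and 8.49 in the mutants and 8.03, 8.68 and 8.74 in the controls. Here too the high mutant was replicate 3 and the low control was replicate 1. Tef differed by -0.56 (SE 0.29; adjusted p = 0.943 in limma; exact permutation p = 0.2) and by -0.40 (SE 0.30) without mutant replicate 1. Both Tef windows shown above hold an E-box, 127 bases upstream of the start in the upstream window and 138 in the other.

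Hlf, the third PAR bZIP factor, read 7.92, 8.37 and 8.96 in the mutants against 8.53, 8.72 and 8.97 in the controls. Only mutant replicates 1 and 2 lay below every control. The difference was -0.32 (SE 0.26; adjusted p = 0.943 in limma), and without mutant replicate 1 it was -0.07 (SE 0.22).

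Nfil3, the repressor that competes with the PAR bZIP factors for D-boxes, was the exception among the transcription factors. It read 9.74, 8.38 and 8.82 in the mutants against 9.01, 8.57 and 8.62 in the controls. Mutant replicate 1 was the highest liver, control replicate 1 the next, and mutant replicate 2 the lowest. The difference was 0.25 (SE 0.33; adjusted p = 0.948 in limma) and turned to -0.14 (SE 0.21) without mutant replicate 1. Lcn2, an acute phase gene, was also highest in that liver, at 13.6, and its part in the Nfil3 value was not tested. The ROR core in the Nfil3 window begins 12 bases upstream of the start. NR1D1 represses Nfil3 through such sites in mouse liver. The Nr1d1 transcript was lowest in mutant replicate 1, where Nfil3 was highest, and second lowest in mutant replicate 2, where Nfil3 was lowest.

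Bhlhe40, an E-box repressor, read 8.59, 8.14 and 9.69 in the mutants and 8.71, 9.78 and 9.85 in the controls. These values form a lower set of 3 livers and an upper set of 3, with mutants and controls in each. The difference was -0.64 (SE 0.43; adjusted p = 0.943 in limma), and -0.53 (SE 0.49) without mutant replicate 1. It was -0.31 without mutant replicate 2, -1.08 without mutant replicate 3 and -1.01 without control replicate 1. Its paralogue Bhlhe41 read 5.55, 5.43 and 5.62 in the mutants, the narrowest mutant range of the 10 genes, against 5.57, 6.31 and 6.45 in the controls. All 3 mutants lay at the level of control replicate 1, and mutant replicate 3, high for Bhlhe40, was low for Bhlhe41. Bhlhe41 had the smallest p of the 10 genes, with a difference of -0.57 (SE 0.24; unadjusted p = 0.0414, adjusted p = 0.943 in limma; exact permutation p = 0.2). Without mutant replicate 1 it differed by -0.58 (SE 0.27). With a signal minimum of 5, which drops its dimmest probe sets, Bhlhe41 differed by -0.47 (SE 0.27). At that minimum, 0 of the 10 genes had an unadjusted p under 0.05 in limma. Both genes are on chromosome 6.

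Usp2, a deubiquitinating enzyme, had the largest difference of the 10 genes. It read 6.78, 6.51 and 7.67 in the mutants against 7.04, 8.18 and 8.74 in the controls. Every mutant lay below the upper 2 controls, but mutant replicate 3 lay above control replicate 1. The mean was 6.98 ± 0.61 in mutants and 7.99 ± 0.86 in controls (SD, n = 3 each), which is 2.01-fold lower in mutants (difference -1.004, SE 0.45; adjusted p = 0.943 in limma; exact permutation p = 0.2). The difference was -0.90 (SE 0.51) without mutant replicate 1. This difference is larger than that of 99.4% of genes, and the range among the 3 controls, 1.69, is also larger than that of 99.4% of genes.

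Wee1, the kinase that holds back entry into mitosis, read 6.54, 6.91 and 7.75 in the mutants against 6.87, 7.47 and 7.40 in the controls. The lowest and the highest liver were both mutants. The difference was -0.18 (SE 0.31; adjusted p = 0.955 in limma), and 0.08 (SE 0.29) without mutant replicate 1. Wee1, Dbp and Dhx32 are all on chromosome 7.

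Noct (Ccrn4l), which encodes nocturnin, a phosphatase related to RNA deadenylases, was the single gene of the 10 with groups that did not overlap. It read 8.21, 8.10 and 8.35 in the mutants against 7.91, 7.52 and 8.07 in the controls. The gap between the lowest mutant and the highest control was 0.02, far less than the SD of either group (0.13 in mutants, 0.29 in controls). Noct differed by 0.39 (SE 0.18; adjusted p = 0.943 in limma), with the exact permutation p at its smallest value of 0.1. Leaving out mutant replicate 1 gave 0.39 (SE 0.20).

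Tsc22d3, a leucine zipper protein induced by glucocorticoids, read 7.41, 8.25 and 8.76 in the mutants and 7.71, 8.40 and 8.86 in the controls. Both groups covered nearly the same range. The difference of -0.18 (SE 0.38; adjusted p = 0.957 in limma) became 0.18 (SE 0.33) without mutant replicate 1.

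The 10 genes varied more between livers of the same genotype than most genes did. The median range among the 3 mutants was 1.19, beside 0.46 for all genes, and among the 3 controls 0.80, beside 0.32. Over the 6 arrays it was 1.29, beside 0.61. Within the controls alone, the range of Dbp (1.64) was larger than that of 99.4% of genes. Bhlhe40 and Tsc22d3 had control ranges of 1.14 and 1.15, each larger than that of 97.6% of genes, and Bhlhe41 one of 0.88 (94.3%). Among the mutants, Dbp again had a range, 1.84, that exceeded that of 98.8% of genes, whereas the mutant ranges of Bhlhe41 (0.19) and Noct (0.26) exceeded those of only 12.8% and 21.5%. These shares describe spread and carry no test. Mutant replicates 1 and 2 and control replicate 1 were the lowest 3 livers for 8 of the 10 genes, Nfil3 and Noct being the others. The same 3 livers were lowest for 17.2% of all genes. This set of livers was picked from the values of the 10 genes themselves, so the 2 shares are a description and no test. They also had the lowest array medians, at 6.73, 6.79 and 6.81. The medians of mutant replicate 3 and control replicates 2 and 3 were 6.95, 6.92 and 6.88. The part of this array-wide level in the order of livers was not tested. For the clock output genes, the step between the lowest 3 livers and the next was 1.42 for Dbp and 0.99 for Bhlhe40. It was 0.16 for Tsc22d3 and 0.06 for Bhlhe41. This order of livers crosses the genotypes unevenly, with 2 mutants and 1 control among the lowest 3. It therefore enters the fitted difference between mutants and controls as well as the spread within groups. The 8 genes with this order are the same 8 that had a lower mean in mutants. Its part in their differences was not tested.

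**Figure D2:**
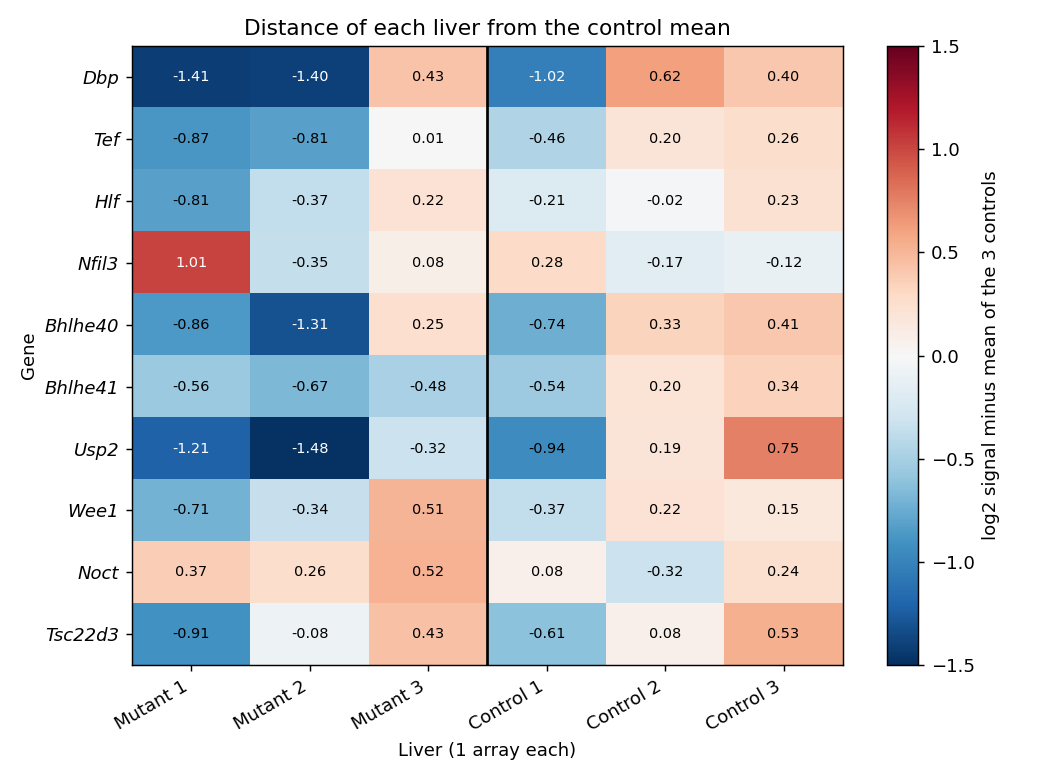
Log2 signal of each liver (columns, mutants left of the line) minus the mean of the 3 controls, for each clock output gene (rows). Dbp stands at -1.41 and -1.40 in mutant replicates 1 and 2 and at -1.02 in control replicate 1, while Nfil3 is at 1.01 in mutant replicate 1.

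Most single probe sets had the sign of their gene's mean. Of the 103 probe sets 77 were lower and 26 higher in mutants, beside 53.2% lower among all kept probe sets. In limma 0 of 103 passed after adjustment over all probe sets (0% of all passed), with a smallest adjusted p = 0.994. An unadjusted p under 0.05 was reached by 8 of 103, against 4.07% of all. Those 8 were 5 of Usp2, 2 of Bhlhe41 and 1 of Noct. The groups did not overlap in 3 probe sets lower in mutants, 2 of Bhlhe41 and 1 of Usp2 (4.44% of all), and in 2 higher ones, both of Noct (4.01% of all). Every probe set of the 10 genes reached the signal minimum of 3 in the mean of at least 1 group. Bhlhe41 probe set 5103120 reached it in the controls only, with a mean of 3.75 against 2.81 in the mutants. Its difference of -0.94 is part of the Bhlhe41 gene mean, and having passed through the higher group it lends that difference no support. The dimmest 3 kept had a higher group mean of 3.75 and 4.29 (Bhlhe41) and 4.74 (Tsc22d3). Probe sets of 1 gene share the same mice and are not separate comparisons.

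**Figure D3:**
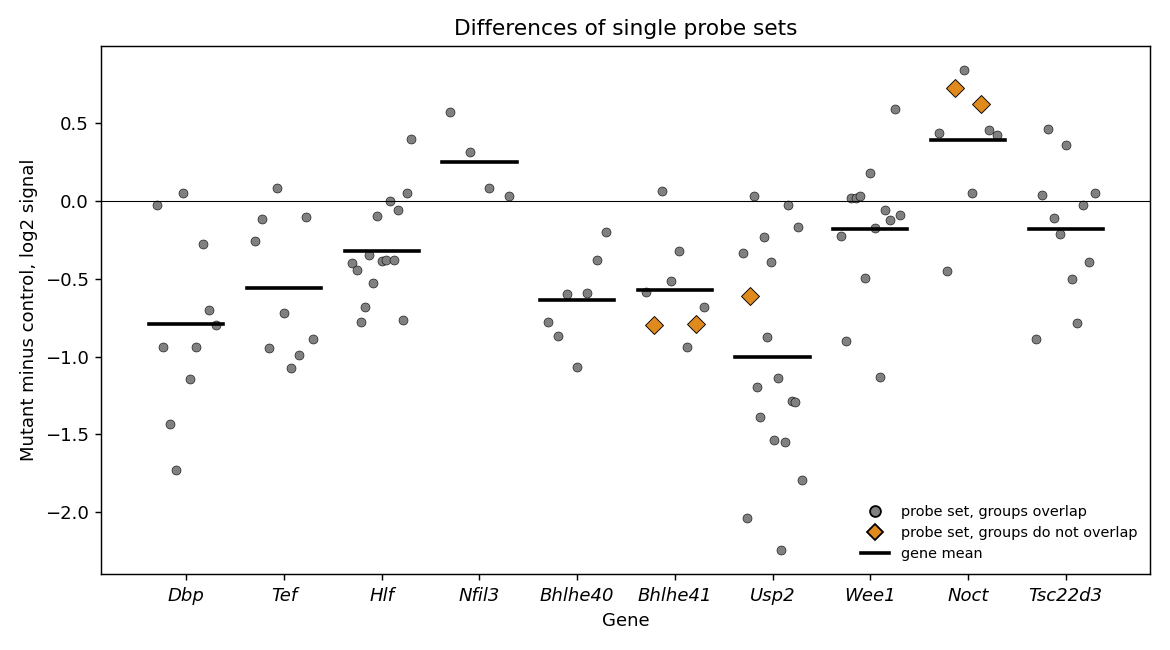
Mutant minus control difference in log2 signal (vertical axis) of every probe set of the 10 clock output genes; black lines mark the gene means. Usp2 reaches -2.24 and Dbp -1.73, all 7 probe sets of Bhlhe40 are below 0, all 4 of Nfil3 are above 0, and diamonds mark the 5 probe sets whose groups do not overlap.

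Within a gene, probe sets differed in how far they followed the livers. In Usp2, probe set 5280746 read 6.82, 5.62 and 8.11 in the mutants against 7.63, 9.32 and 10.3 in the controls, a difference of -2.24 (SE 0.78; adjusted p = 0.994 in limma). Probe set 5333440 of the same gene read 8.32, 8.22 and 8.77 in the mutants against 8.34, 8.35 and 8.70 in the controls, a difference of -0.03 (SE 0.27). The first spanned 4.70 log2 units over the 6 livers and the other 0.55, so Usp2 holds both a strongly varying and a nearly level set of probes. Altogether 10 of 18 Usp2 probe sets spanned more than 2 log2 units and 4 less than 1. Usp2 is known to be made as isoforms with different first exons, but where each probe set lies in the gene was not analysed here.

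In Dbp, 7 of 10 probe sets spanned more than 2 log2 units and 1 less than 1. The narrowest was probe set 5224636, at 9.55, 9.40 and 9.10 in the mutants against 9.30, 9.39 and 9.21 in the controls, a span of 0.45. Probe sets 4327578 and 5580789 spanned 1.32 and 1.43. Probe set 5224636 was thus nearly level over livers in which 7 others ranged widely. In Wee1, probe set 5259889 read 3.80, 6.50 and 7.34 in the mutants against 6.17, 7.38 and 7.49 in the controls, with mutant replicate 1 far below the rest. In Tsc22d3, probe set 5075333 read 2.15, 5.96 and 5.85 in the mutants against 4.76, 4.42 and 5.96 in the controls, again with mutant replicate 1 lowest, and below the signal minimum on that array. These examples were chosen after their values were seen.

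**Figure D4:**
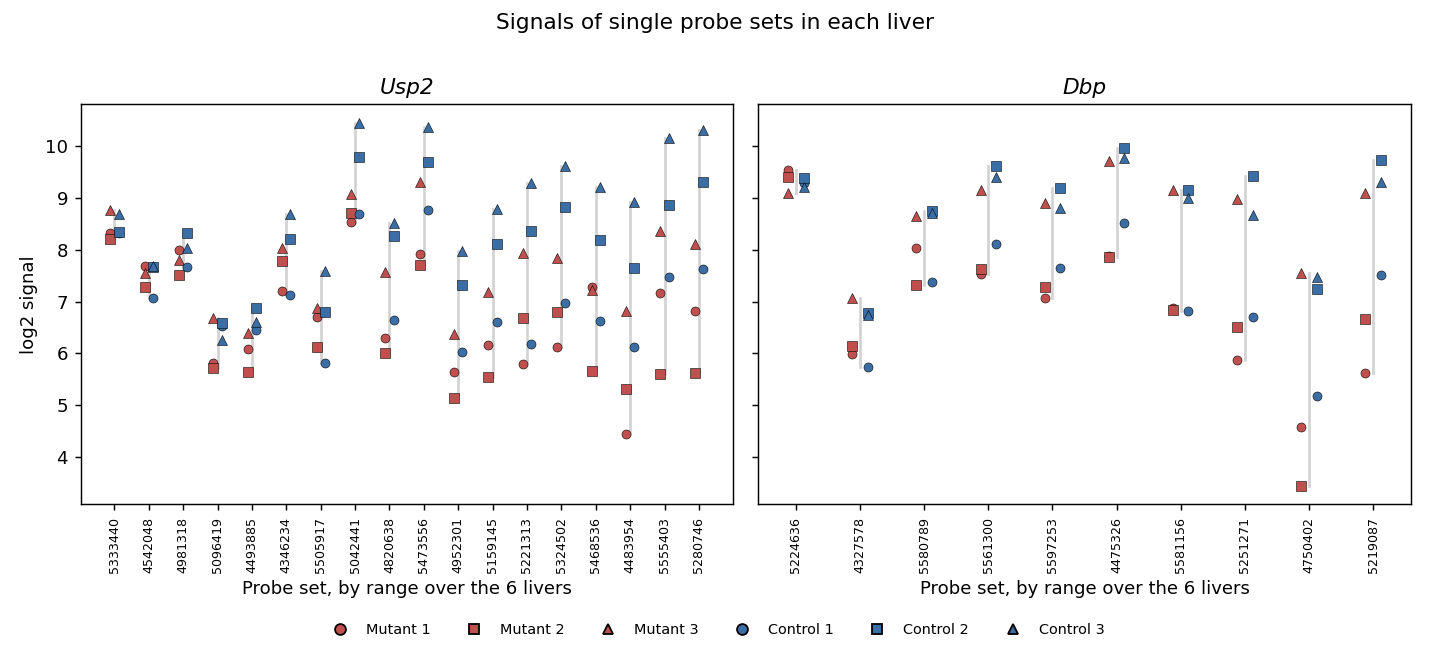
Log2 signal of every Usp2 and Dbp probe set in the 6 livers (red, mutants; blue, controls; marker shape, replicate), ordered by range along the horizontal axis. The grey lines span the lowest to the highest liver; they grow from 0.55 to 4.70 for Usp2 and from 0.45 to 4.13 for Dbp.

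The groups were separated in 2 probe sets each of Bhlhe41 and Noct and 1 of Usp2. Usp2 probe set 4493885 read 6.08, 5.63 and 6.40 in the mutants against 6.46, 6.88 and 6.61 in the controls (difference -0.61, SE 0.29). Bhlhe41 probe set 4468150 read 3.64, 3.38 and 3.45 in the mutants against 4.36, 4.44 and 4.07 in the controls (difference -0.80, SE 0.25), which is close to the signal minimum. Its brighter probe set 5261316 read 6.46, 6.68 and 6.84 in the mutants against 6.92, 7.498 and 7.93 in the controls (difference -0.79, SE 0.32). Both place all mutants below all controls, the second by a small margin. Noct probe set 4837360 read 5.64, 5.84 and 6.35 in the mutants against 5.28, 5.10 and 5.28 in the controls (difference 0.73, SE 0.28). Noct probe set 5144224 read 7.96, 7.96 and 8.34 in the mutants against 7.87, 7.08 and 7.45 in the controls (difference 0.62, SE 0.29). Its lower mutants lay only a little above control replicate 1. None of these probe sets passed after adjustment (each adjusted p = 0.994 in limma).

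Exon usage asks whether the mutant minus control difference varies among the probe sets of a gene. It was tested with the F-test of limma's diffSplice over 14310 genes. With the Simes adjustment, which starts from single probe sets, 0 of the 10 clock output genes passed. None of the 10 clock output genes passed (each adjusted p = 1; 0.21% of all genes passed), and 0 had an unadjusted p under 0.05, against 4% of all genes. Noct had the smallest unadjusted p of the 10 in this F-test (0.173). Its probe set 4809119 deviated most, with a difference of -0.45 in a gene whose other 7 probe sets were higher in mutants. That probe set read 9.44, 9.16 and 8.93 in the mutants against 9.66, 9.10 and 10.1 in the controls, with control replicate 3 highest.

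Genes whose pattern over the 6 livers lay closest to that of Dbp were ranked by the root mean square distance between deviations from each gene's own mean, in log2 units. Outside the 10 genes the nearest was Klf10, a zinc finger factor that is itself rhythmic in liver, at 0.17. Klf10 read 6.43, 6.30 and 7.79 in the mutants against 6.55, 8.09 and 7.83 in the controls. Spry4, an inhibitor of receptor tyrosine kinase signalling (0.20), the galectin Lgals1 (0.22), Spata2L (0.25) and the dim Omd (0.26) followed. Among the 10 genes, Bhlhe40 was nearest to Dbp at 0.28 and ranked 7 of 15045 genes counting Dbp itself. Usp2 lay at 0.38 (rank 25) and Tef at 0.46 (rank 60), while Noct and Nfil3 lay at 0.998 (rank 12241) and 1.16 (rank 14453). Dbp's own deviations had a root mean square of 0.89, the distance of a gene that does not vary. The livers number 6, and this ranking is a description.

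The core clock list, 13 of 16 genes measured, had 11 genes with a lower and 2 with a higher mean in mutants, a median difference of -0.10 and 0 passing in either direction in limma (0 at an unadjusted p under 0.05). Nr1d1, the repressor of Bmal1, read 7.30, 8.14 and 10.5 in the mutants against 9.13, 10.9 and 10.7 in the controls, the widest spread of that list. It was lowest in the livers where Dbp was lowest, though control replicate 1 was less low. Nr1d1 differed by -1.58 (SE 0.79), Nr1d2 by -0.68 (SE 0.50) and the repressor Cry2 by -0.45 (SE 0.23), each with an adjusted p = 0.943 in limma. With mutant replicate 1 left out, these differences were -0.91, -0.14 and -0.25. Arntl, which encodes BMAL1, ran the other way within the mutants, at 8.00, 8.44 and 7.34, against 8.40, 8.04 and 8.20 in the controls. Its lowest liver was mutant replicate 3, where Dbp was high. Mutant replicates 1 and 2 and control replicate 1 were the lowest 3 livers for 7 of these 13 genes.

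A list of PAR bZIP targets and other genes of detoxification and haem supply, 10 of 13 measured, had 8 lower and 2 higher, with a median difference of -0.25 and 0 passing in limma (2 at an unadjusted p under 0.05). The median was -0.03 without mutant replicate 1 and -0.60 without mutant replicate 3. Alas1, the rate-limiting enzyme of haem synthesis, had a higher mean in mutants, unlike Dbp, though control replicate 1 was the lowest control for both. Alas1 read 12.1, 12.1 and 12.3 in the mutants against 9.92, 10.7 and 11.6 in the controls. The difference was 1.43 (SE 0.38, adjusted p = 0.943 in limma), without overlap. Gsta4, a glutathione transferase, read 10.1, 10.5 and 10.8 in the mutants against 11.1, 10.9 and 10.9 in the controls, also without overlap, a difference of -0.53 (SE 0.19). Cyp2b10, a xenobiotic P450, read 7.41, 6.40 and 7.84 in the mutants against 6.63, 10.1 and 10.8 in the controls, so control replicate 1 again lay with the mutants. Ppara, the fatty acid sensing receptor, differed by -0.54 (SE 0.32), by -0.26 without mutant replicate 1 and by -0.89 without mutant replicate 3.

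Other rhythmic liver transcripts, 17 of 20 measured, had 12 lower and 5 higher, with a median difference of -0.34 and 0 passing in limma (1 at an unadjusted p under 0.05). The median was -0.13 without mutant replicate 1 and -0.19 without control replicate 3. Ypel2 read 6.54, 7.38 and 7.08 in the mutants against 8.10, 8.32 and 8.65 in the controls. Its groups did not overlap and control replicate 1 lay with the other controls, unlike in Dbp; the difference was -1.36 (SE 0.24; adjusted p = 0.561 in limma). Upp2, a uridine phosphorylase, differed by -1.21 (SE 0.62), the methyltransferase Inmt by -0.73 (SE 0.38) and the glycogen targeting subunit Ppp1r3c by -0.69 (SE 0.31). Without mutant replicate 1 the differences of Upp2 and Inmt were -0.48 and -0.23.

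Glucocorticoid responsive genes, set beside Tsc22d3, showed another order of livers. Of 15 genes measured of 18, 10 were higher and 5 lower, with a median difference of 0.05 and 0 passing in limma (1 at an unadjusted p under 0.05, Lcn2). The list mean stood 1.14 above the control mean in mutant replicate 1, the liver in which Tsc22d3 was lowest, and 0.63 below it in control replicate 1. The other mutants stood at -0.25 and 0.26 and the other controls at 0.14 and 0.50. Lcn2, Mt2 and Mt1 weighed most in the mean of mutant replicate 1. They read 13.6, 13.0 and 12.8 there, against control means of 7.31, 8.51 and 9.63. Nr3c1 and Gadd45a were among the genes below their control means in that liver. Lcn2 differed by 4.32 (SE 0.76; adjusted p = 0.547 in limma) and by 3.35 without mutant replicate 1. Igfbp1, a binding protein of insulin-like growth factors, differed by 0.88 (SE 0.54), the growth arrest gene Gadd45a by -0.75 (SE 0.35) and the glucocorticoid receptor Nr3c1 by -0.37 (SE 0.24). Igfbp1 differed by 0.19 without control replicate 1, Gadd45a by -0.39 without control replicate 2 and Nr3c1 by -0.09 without mutant replicate 1. Without mutant replicate 1 the list's median difference was -0.09.

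**Figure D5:**
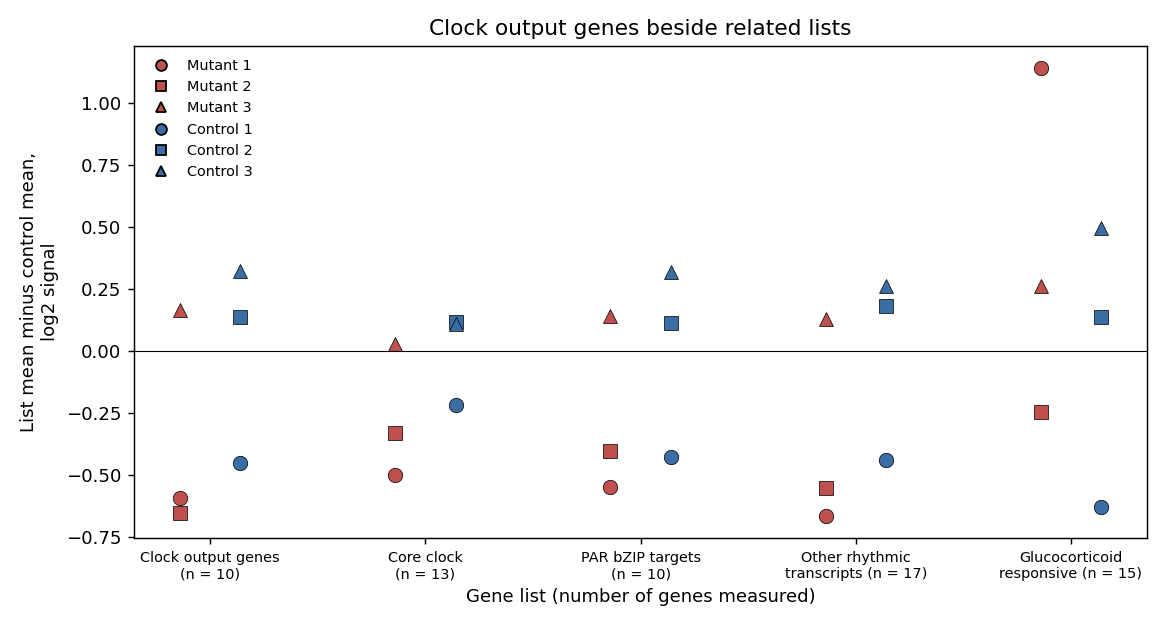
Mean log2 signal over each gene list in each liver, minus the mean of the 3 controls (vertical axis; red, mutants; blue, controls; marker shape, replicate). For the clock output genes mutant replicates 1 and 2 lie at -0.60 and -0.66 and control replicate 1 at -0.45. The glucocorticoid list places mutant replicate 1 highest, at 1.14, with Lcn2, Mt1 and Mt2 weighing most.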

How the data were processed

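The deposited values are log2 signals of 204531 probe sets on 6 arrays. Affymetrix Expression Console 1.1, RMA, Partek 6.4 and mm9 appear, with no role stated, in the submitters' processing notes. RMA draws array-wide differences together and compresses those of dim probe sets. Arrays have no read depth; their number, 3 per group, limits precision. That mice are separate comes from the labels' numbering.

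Symbols came from the platform annotation, updated through RefSeq (13995 current, 2104 replaced, 40 unmatched). A probe set was kept where a group's mean was 3 or more (191663 kept). A gene's value was the mean of at least 2 kept probe sets. Mutant minus control was fitted with limma 3.58.1 in R 4.3.3 (lmFit, eBayes; diffSplice for genes with at least 3 probe sets), with Benjamini-Hochberg adjustment over all features and a threshold of 0.05. The steps were tested on simulated data. Named genes were the 10 clock output genes, Dhx32, the 4 of smallest p in each list and the 5 nearest to Dbp, predicted genes passed over. Mt1 and Mt2 were added after their values were seen. These genes and lists were chosen with earlier results of these data known. Alternatives changed the signal minimum, normalization, moderation, array weights, gene summary, exon usage test and replicate block, and left out each array.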

Additional observations from a re-analysis of the deposited data

How the results depend on the processing

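Over 14 alternatives the 10 clock output genes kept the sign of their difference in 135 of 140 cases, and in none did one pass the threshold at the gene level, for single probe sets or for exon usage. With 1 array left out Nfil3 ran from -0.14 to 0.55, Wee1 from -0.526 to 0.082 and Tsc22d3 from -0.493 to 0.18. These 3 changed sign without mutant replicate 1, Tsc22d3 also without control replicate 3 (0.08) and with the gene median over probe sets (0.13). Over the same fits the median difference of the 10 genes ran from -0.64 to -0.27, that of Dbp from -1.41 to -0.48 and that of Usp2 from -1.48 to -0.63. Of the other named genes, Arntl reversed without mutant replicate 3 (-0.54 to 0.0067). Genes past the threshold numbered 1 in all; they were 0 with no signal minimum or the replicate block, 2 with quantile normalization, median centring or array weights, and 0 to 3 with 1 array left out. Probe sets past it numbered 0 in all, 2 with a signal minimum of 5, 7 with an intensity trend, 3 with array weights and 0 to 5 with 1 array left out. Exon usage called 30 genes, 18 with the replicate block, 130 with the Simes adjustment and 13 to 58 with 1 array left out. The causes were not tested. The labels do not pair mice by replicate number and give no shared litter or day. Over all genes, deviations of same-numbered livers correlated at 0.10, -0.11 and 0.18, and 2 of 6 livers correlated best with their own number. The replicate block lowered the SE of each of the 10 clock output genes, in Dbp from 0.57 to 0.36 and in Tsc22d3 from 0.38 to 0.17. Whether same-numbered livers shared an hour of collection was not tested. Clock output genes at an unadjusted p under 0.05 numbered 1 in the reported fit, 3 with the replicate block and 0 to 5 over the alternatives, being 5 with array weights and without mutant replicate 3 or control replicate 1. Dim probe sets near the minimum of 3 limit what Bhlhe41 can show.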
